A study of Mus musculus with 9 samples.

Results

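The glucocorticoid receptor gene Nr3c1, the hormone-activating enzyme gene Hsd11b1 and 7 genes known to respond to glucocorticoids (Fkbp5, Tsc22d3, Zbtb16, Sgk1, Klf9, Mt1 and Mt2) were followed in RNA sequencing of mouse skin. They were taken by symbol from the per-library gene tables, and all 9 were found among the 49585 genes listed. The study has 3 groups of 3 libraries each: mice of the C57BL/6 strain whose genotype label reads IL-6 -/-, wild-type BALB/c mice, and wild-type C57BL/6 mice, which the study names as its control. All mice arrived at 4 to 5 weeks of age and were acclimated for 2 weeks. They were shaved at 6 weeks (day 0) and left with no agent for 7 days before the skin was taken on day 8. The protocol counts 6 IL-6-deficient, 3 BALB/c and 3 C57BL/6 mice and does not tie a library to 1 animal, so p-values measure the spread between libraries, which may in part be technical. Sex, the hour of skin collection and the part of Il6 that was deleted are not given in the labels.

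Glucocorticoids are steroid hormones of the adrenal gland that are also made and reactivated in skin. The receptor waits in the cytoplasm in a complex with heat shock chaperones, binds hormone, moves into the nucleus and raises or lowers transcription, often at a palindromic sequence called the glucocorticoid response element (GRE). In skin the pathway is known for damping inflammation and for restraining growth of the epidermis and hair follicle. Its hormone follows a daily rhythm, and several of its target genes do so too.

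Total exon reads per library ran from 3843953 to 4476346 in the IL-6 KO-labelled libraries, from 6115739 to 6242332 in BALB/c and from 6083876 to 6882193 in C57BL/6. The reads did not settle the knockout label. Il6 had 6, 24 and 1 exon reads in the IL-6 KO-labelled libraries, 0, 2 and 0 in BALB/c, against 2, 1 and 0 in C57BL/6. Reads of Il6 were thus not absent under the label, but with the deleted part of the gene not given they cannot test it. The IL-6 KO-labelled libraries are therefore named by their label throughout, and each direction given for them rests on it. The tables of that group also have a different column layout from the others, so any difference in processing cannot be told apart from the genotype. BALB/c replicate 2 had 130 reads of Xist, the RNA that silences an X chromosome, against 5 or fewer in each other library. Calls that change without it are named beside the result. All 15 epidermal marker genes were read in each group, with 1.03 to 3.46% of exon reads in the IL-6 KO-labelled libraries, 2.58 to 3.06% in BALB/c and 1.74 to 3.16% in C57BL/6.

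Stretches of RefSeq promoter sequence (GRCm38.p6) are shown first for the 2 metallothionein genes, which lie next to each other and were the members that rose, and for Sgk1, whose level differed least between groups. Each runs 5′ to 3′ and ends at the base before an annotated start. Capitals mark, in Mt1 and Mt2, the core of the metal response element (MRE), searched as TGCACNC and TGCGCNC on both strands. In Sgk1 they mark the full GRE, searched as AGAACA, 3 bases of any kind and TGTTCT. This pattern is its own reverse complement, so a match on both strands was counted as a single site.
Mt2, chr8:94172418-94172617, + strand: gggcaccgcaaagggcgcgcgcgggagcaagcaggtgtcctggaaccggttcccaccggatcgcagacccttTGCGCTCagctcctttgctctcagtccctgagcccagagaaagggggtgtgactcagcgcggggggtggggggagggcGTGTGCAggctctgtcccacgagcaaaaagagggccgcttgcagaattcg
Mt1, chr8:94178889-94179088, + strand: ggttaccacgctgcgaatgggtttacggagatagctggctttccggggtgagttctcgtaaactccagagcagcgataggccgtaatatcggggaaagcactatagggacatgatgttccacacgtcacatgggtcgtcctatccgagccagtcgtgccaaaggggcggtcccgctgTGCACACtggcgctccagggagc
Sgk1, chr10:21993690-21993889, + strand: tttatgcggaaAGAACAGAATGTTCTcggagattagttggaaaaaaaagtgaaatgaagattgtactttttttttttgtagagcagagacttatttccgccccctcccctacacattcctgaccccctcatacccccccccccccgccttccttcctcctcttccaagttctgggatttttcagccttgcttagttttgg

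Among the 7 members with a RefSeq promoter (14 annotated starts), only this start of Sgk1 held the full GRE in the 250 bases before it, at position -189. That sequence occurred in 3 of 32851 promoter windows of the same length (0.00913%). A single arm, AGAACA on either strand, occurred in 16.1% of windows. It was found at 3 starts of Sgk1 and 1 of Tsc22d3, and Fkbp5, Klf9, Hsd11b1, Mt1 and Mt2 had none in their windows. Mt2 had 3 MRE cores in its window, one of them at -223 and so outside the stretch shown, a number reached by 1.26% of windows. Mt1 had 1, a number reached by 21.4% of windows. With the 50 bases after the start included, Mt2 had 4, a number reached by 0.517% of such 300-base windows, and Mt1 had 3, a number reached by 1.97%. GENCODE, on the same build, starts Mt2 at 94172664 or 94172860 and Mt1 at 94179082, 94179211 or 94179241, so the RefSeq starts used here are not the only ones. The search covers only these letters in these windows.

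The receptor itself was lower in the IL-6 KO-labelled libraries than in both strains. Nr3c1 (chromosome 18, 39410545 to 39491301, GRCm38, minus strand) stood at 63.5, 100.2 and 67.7 CPM (exon reads scaled to library size, with TMM factors) in the IL-6 KO-labelled libraries, at 150.3, 147.2 and 153.4 in BALB/c, against 142.0, 121.7 and 114.8 in C57BL/6. All 3 IL-6 KO-labelled libraries lay below all 6 libraries of the strains, and replicate 2 was the nearest to them. On the log2 scale the difference was -0.96 ± 0.18 (SE) against BALB/c and -0.71 ± 0.18 against C57BL/6, with adjusted p = 0.00348 and 0.0139 in edgeR's quasi-likelihood test over all genes. The call against C57BL/6 ended without C57BL/6 replicate 1 (adjusted p = 0.0529) or without IL-6 KO replicate 1 (0.0553) or 3 (0.0648), and with library size alone as the scaling (0.0609), over a range of 0.000678 to 0.0648. In bulk skin, fewer cells that make a transcript and less transcript per cell cannot be told apart, and this holds for every gene below.

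Hsd11b1, whose enzyme turns inert steroid back into active glucocorticoid inside cells (chromosome 1, 193221634 to 193264075, minus strand), was read little in all 3 groups. It stood at 8.46, 15.5 and 5.94 CPM in the IL-6 KO-labelled libraries, 17.5, 8.15 and 8.60 in BALB/c, against 7.84, 11.2 and 12.8 in C57BL/6, so the groups overlapped. The log2 difference from C57BL/6 was -0.08 with a 95% interval from -1.01 to 0.84, and that from BALB/c was -0.19 with an interval from -1.11 to 0.73. These intervals do not exclude a change of about the size seen for the receptor. Only 45.3 to 56.6% of its exon reads were unique. The gene also overlaps Lamb3, a laminin gene on the other strand, and the labels do not state whether the counting used strand.

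Of the response genes, Fkbp5, Tsc22d3, Zbtb16 and Klf9 fell in the IL-6 KO-labelled libraries against C57BL/6, and Tsc22d3 and Klf9 also fell against BALB/c. In GRCm38, Fkbp5 lies on chromosome 17 (28399095 to 28517524, minus strand) and Tsc22d3 on chromosome X (140539528 to 140600659, minus strand). Zbtb16 lies on chromosome 9 (48654297 to 48836222, minus strand), Klf9 on chromosome 19 (23141226 to 23166911, plus strand) and Sgk1 on chromosome 10 (21882184 to 21999903, plus strand). Fkbp5, which encodes a receptor co-chaperone that dampens hormone binding in a feedback loop, stood at 26.7, 41.7 and 33.1 CPM in the IL-6 KO-labelled libraries, 18.1, 34.9 and 42.3 in BALB/c, against 71.9, 147.9 and 62.8 in C57BL/6. Both other groups lay below C57BL/6 and overlapped each other, and C57BL/6 replicate 2 was well above the other 2 libraries of its strain. The IL-6 KO-labelled libraries differed by -1.47 ± 0.38 from C57BL/6 (adjusted p = 0.0160, edgeR) and by 0.10 ± 0.39 from BALB/c (0.865). Without C57BL/6 replicate 2 the first difference was -0.99 (adjusted p = 0.0464). The call was lost without IL-6 KO replicate 1 (0.0623) or 3 (0.0577), over a range of 0.00149 to 0.0623.

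Tsc22d3 encodes GILZ, a leucine zipper protein that carries part of the anti-inflammatory action of glucocorticoids. It stood at 70.9, 135.4 and 91.3 CPM in the IL-6 KO-labelled libraries, 145.0, 189.9 and 203.6 in BALB/c, against 196.9, 204.2 and 181.4 in C57BL/6. All 3 IL-6 KO-labelled libraries lay below both strains, with replicate 2 again the highest of them. The difference was -0.97 ± 0.23 from C57BL/6 (adjusted p = 0.0106) and -0.85 ± 0.23 from BALB/c (0.0174, edgeR). The call against BALB/c ended without IL-6 KO replicate 1 (0.0553) or 3 (0.0701), without BALB/c replicate 2 (0.0531) or 3 (0.0602), and with only those groups in the model (0.0571), over a range of 0.00140 to 0.0701.

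Zbtb16, a zinc finger transcription factor gene also known as PLZF, had the largest fall of the 9 members against C57BL/6. It stood at 8.20, 24.8 and 8.92 CPM in the IL-6 KO-labelled libraries, 22.3, 23.4 and 40.9 in BALB/c, against 51.0, 104.2 and 44.2 in C57BL/6. The IL-6 KO-labelled libraries and those of BALB/c overlapped through IL-6 KO replicate 2, and both groups lay below C57BL/6. The difference from C57BL/6 was -2.23 ± 0.49 (adjusted p = 0.00718, edgeR), or -1.75 without C57BL/6 replicate 2, in which Fkbp5 and Zbtb16 were both highest. The difference from BALB/c was -1.03 ± 0.49 (adjusted p = 0.123), and without IL-6 KO replicate 2 it was -1.75 (adjusted p = 0.0153, from 0.0153 to 0.341 over the alternatives).

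Klf9, a Krüppel-like factor that glucocorticoids induce in keratinocytes and that also follows the circadian clock, stood at 21.7, 50.1 and 24.4 CPM in the IL-6 KO-labelled libraries, 67.0, 90.5 and 82.2 in BALB/c, against 89.5, 69.1 and 67.8 in C57BL/6. It was lower in each IL-6 KO-labelled library than in any library of the strains. The difference was -1.31 ± 0.29 from BALB/c (adjusted p = 0.00787) and -1.23 ± 0.29 from C57BL/6 (0.0108, edgeR), and both calls held under every alternative run.

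Sgk1, a kinase gene induced by glucocorticoids and mineralocorticoids that acts on ion transport, showed no such difference. It stood at 101.6, 125.4 and 90.6 CPM in the IL-6 KO-labelled libraries, 106.8, 100.6 and 108.3 in BALB/c, against 111.8, 102.5 and 116.1 in C57BL/6. All 3 groups overlapped. The 95% interval of the log2 difference ran from -0.37 to 0.25 against C57BL/6 and from -0.30 to 0.32 against BALB/c, narrower than for any other member in either comparison. The interval against C57BL/6 leaves out the changes fitted there for Fkbp5, Tsc22d3, Zbtb16 and Klf9. The interval against BALB/c leaves out those fitted there for Tsc22d3, Zbtb16 and Klf9 but holds that of Fkbp5 (0.10).

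**Figure D1:**
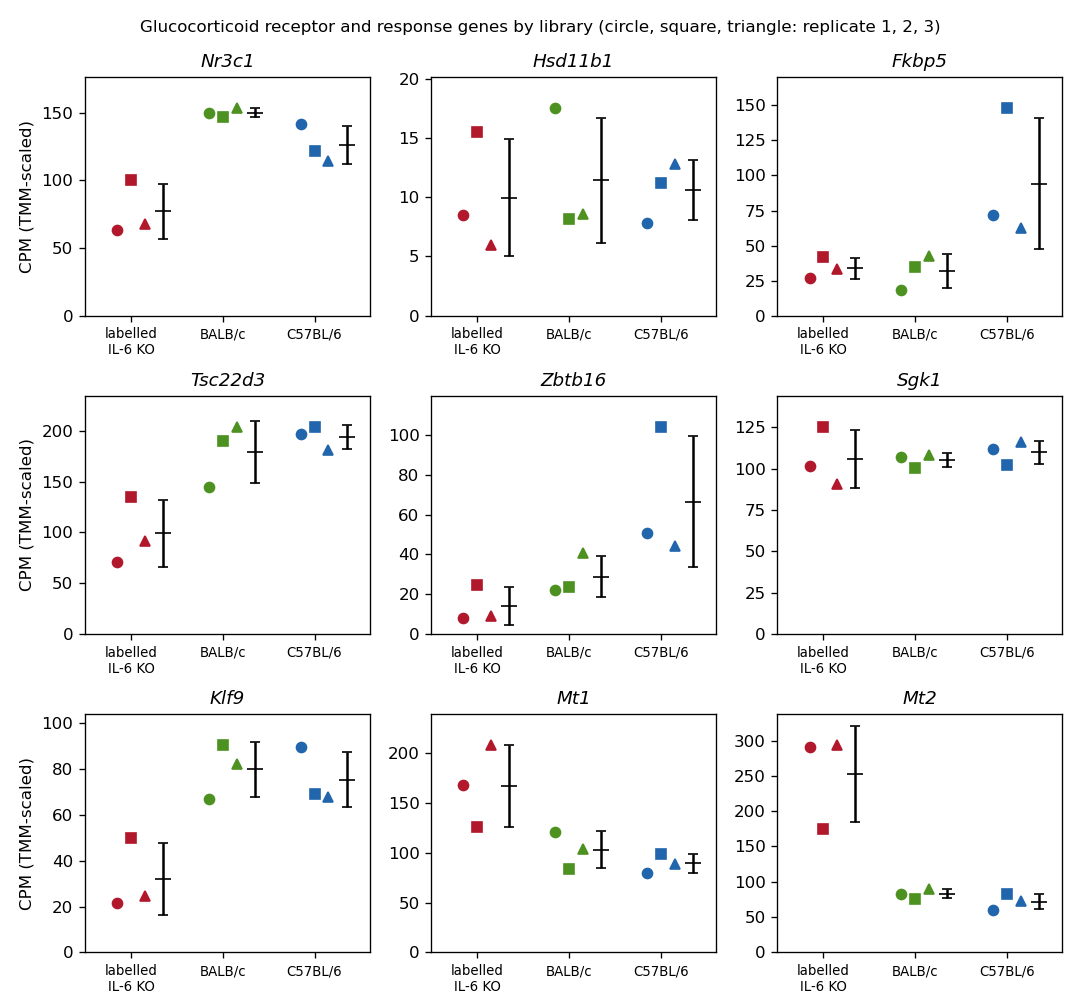
CPM of each of the 9 genes in each library, with IL-6 KO-labelled libraries on the left, BALB/c in the middle and C57BL/6 on the right; black bars are mean ± SD (n = 3), and each panel has its own axis from 0. Nr3c1, Tsc22d3 and Klf9 lie lower, and Mt1 and Mt2 higher, in all 3 IL-6 KO-labelled libraries than in any other library, while Fkbp5 and Zbtb16 are highest in C57BL/6 and Sgk1 overlaps.

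The metallothioneins moved the other way. Mt1 and Mt2 encode small cysteine-rich proteins that bind zinc and copper, and they are induced by metals through the factor MTF1 as well as by glucocorticoids. They lie on chromosome 8 (Mt2 at 94172664 to 94173568, Mt1 at 94179082 to 94180327), with 5513 bases between them. Mt2 stood at 290.4, 174.7 and 293.6 CPM in the IL-6 KO-labelled libraries, 83.4, 76.2 and 89.2 in BALB/c, against 60.4, 82.8 and 72.8 in C57BL/6. Mt1 stood at 167.9, 125.6 and 207.8 CPM in the IL-6 KO-labelled libraries, 121.0, 83.8 and 103.5 in BALB/c, against 79.9, 98.7 and 88.8 in C57BL/6. Both genes were higher in each IL-6 KO-labelled library than in any other, by a wide gap for Mt2 and a narrow one for Mt1, and replicate 2 was again the nearest to the strains.

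Mt2 was 3.51-fold higher than in C57BL/6 (log2 1.81 ± 0.21, adjusted p = 0.000568, edgeR) and 3.05-fold higher than in BALB/c (1.61 ± 0.21, 0.000781). Mt1 was 1.87-fold higher than in C57BL/6 (0.91 ± 0.20, adjusted p = 0.00840) and 1.63-fold higher than in BALB/c (0.70 ± 0.20, 0.0240). The Mt1 call against BALB/c ended without IL-6 KO replicate 1 (0.0611) or 3 (0.0998) or BALB/c replicate 2 (0.0955) or 3 (0.0674), over a range of 0.00437 to 0.0998, while the other 3 calls held under every alternative. In GENCODE a predicted gene on the other strand, Gm45774, overlaps Mt2. It is not analysed here, and without a stated strand setting its reads cannot be told apart from those of Mt2.

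Per length, Mt2 was above Mt1 in every library, and by more in the IL-6 KO-labelled libraries. This order depends on the exon lengths used, 588 bases for Mt2 and 1246 for Mt1. The length for Mt1 covers its whole span, and it had 0 intron reads in every group. In CPM, which leaves length out, the ratio of Mt2 to Mt1 was 1.73, 1.39 and 1.41 in the IL-6 KO-labelled libraries. It was 0.69, 0.91 and 0.86 in BALB/c and 0.76, 0.84 and 0.82 in C57BL/6, so Mt1 was the higher in both strains. The ratio of Mt2 to Mt1 in deposited RPKM (reads scaled to exon length and library size) was 3.66, 2.95 and 2.99 in the IL-6 KO-labelled libraries, 1.46, 1.93 and 1.83 in BALB/c, against 1.60, 1.78 and 1.74 in C57BL/6. The IL-6 KO-labelled libraries did not overlap with the other groups. The mean ratio was 3.20 ± 0.40 there, against 1.74 ± 0.25 in BALB/c and 1.71 ± 0.09 in C57BL/6 (SD, n = 3 each). A two-sided exact permutation test gave p = 0.1 for either difference, the smallest value that 3 against 3 allows (0.15 adjusted over the 3 comparisons made).

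**Figure D2:**
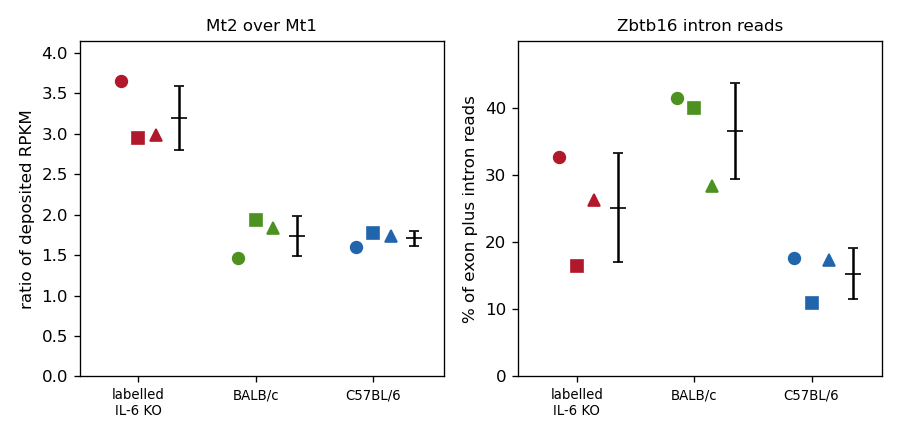
Left, the ratio of deposited RPKM of Mt2 to Mt1 in each library; right, the intron reads of Zbtb16 as a percentage of its exon plus intron reads. Points are replicates 1, 2 and 3 (circle, square, triangle) and black bars are mean ± SD (n = 3). The ratio is 2.95 or more in each IL-6 KO-labelled library and 1.93 or less elsewhere, and the Zbtb16 intron share is 28.4% or more in BALB/c and 17.6% or less in C57BL/6.

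Set against all genes, 7 of the 9 members were called in the IL-6 KO-labelled libraries against C57BL/6, 2 higher and 5 lower, where 35.2% of all 14415 genes tested were called (19.2% higher and 16% lower). Against BALB/c 5 were called, 2 higher and 3 lower, where 37.3% of all genes were (19.9% higher and 17.4% lower). The members' median log2 difference was -0.71 against C57BL/6 and -0.19 against BALB/c, while the median of all genes was 0.01 in both. All 9 members passed the filter on low counts. The libraries did not overlap for the same 7 and 5 members, and did not overlap for 47.5% and 50.7% of all genes. In a joint test of the 3 groups 7 members passed and Hsd11b1 and Sgk1 did not (adjusted p = 0.917 and 0.903), where 40.7% of all genes passed. The 2 comparisons share the IL-6 KO-labelled libraries, so they are not independent of each other.

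Between the strains, none of the 9 members was called in edgeR, where 3.41% of all genes were (1.63% higher and 1.78% lower). Unadjusted, p was 0.00236 for Fkbp5 and 0.0256 for Zbtb16 in edgeR, and the share of all genes at such values was not computed. DESeq2 called 1 member, Fkbp5, and also called more of all genes, as given below. Fkbp5 differed by -1.57 ± 0.38 between BALB/c and C57BL/6 (adjusted p = 0.0602), and its log2 interval of -2.43 to -0.71 leaves out 0. Its adjusted p was 0.0430 without the filter on low counts and 0.00400 in DESeq2, but 0.137 without C57BL/6 replicate 2. Zbtb16 differed by -1.21 ± 0.46 (adjusted p = 0.191). BALB/c lay above C57BL/6 in all libraries for Nr3c1 (0.25, adjusted p = 0.471) and below in all for Fkbp5 and Zbtb16, 3 of 9 members without overlap, against 30.2% of all genes. For Tsc22d3, Sgk1, Klf9, Mt1 and Mt2 the fitted log2 differences lay between -0.11 and 0.21.

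**Figure D3:**
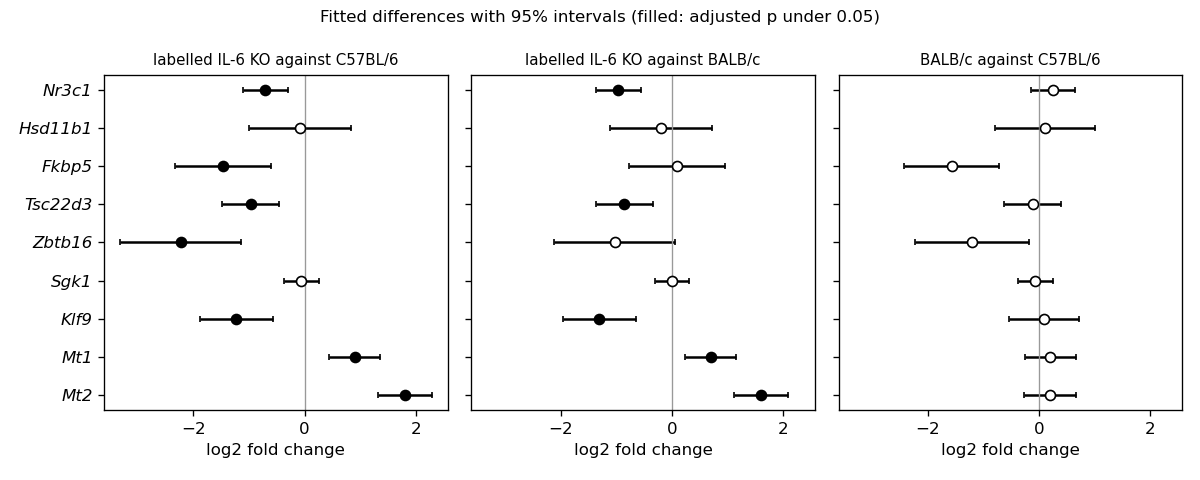
Fitted log2 fold changes of the 9 genes (points) with 95% intervals (bars) in the 3 comparisons, named above each panel with the group on top of the ratio first; filled points have an adjusted p under 0.05. Against C57BL/6 the IL-6 KO-labelled libraries show 5 members lower and 2 higher, against BALB/c 3 lower and 2 higher, and between BALB/c and C57BL/6 there are no filled points.

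Intron reads, which come largely from transcripts not yet spliced, were numerous enough in each library (at least 10) for 3 members, and Zbtb16 was singled out after its values were seen. Intron reads made up 32.6, 16.4 and 26.3% of its exon plus intron reads in the IL-6 KO-labelled libraries, between 28.4 and 41.4% in BALB/c, and between 10.96 and 17.6% in C57BL/6. BALB/c lay above C57BL/6 in all libraries, as it did for 17.7% of the 5364 genes with that many intron reads (below for 4.53%). Fkbp5 and Sgk1 overlapped in each comparison, and Zbtb16 overlapped in the other 2. Over the same genes the IL-6 KO-labelled libraries all lay above C57BL/6 for 28.8% and below for 4.25%, and above BALB/c for 17.4% and below for 9.6%. In counts, Zbtb16 had 99, 94 and 100 intron reads in BALB/c against 71, 86 and 50 in C57BL/6, while its exon reads were 140, 141 and 252 against 332, 699 and 238. So its exon reads were fewer in BALB/c on average but its intron reads were not. Fkbp5 had an intron share of 13.2% over the IL-6 KO-labelled libraries, 12.9% over BALB/c and 10.1% over C57BL/6. The intron share of whole libraries ran from 7.80 to 8.84% in the IL-6 KO-labelled libraries, 6.90 to 8.87% in BALB/c and 5.73 to 7.09% in C57BL/6, and its part in these differences was not tested.

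On the per-length scale the order of the members was led by Mt2 and Mt1, whose order relative to each other depends on the exon lengths given above. The median deposited RPKM over the 9 libraries was 131 for Mt2 and 75.6 for Mt1, followed by Tsc22d3 (34.1), Sgk1 (19.4), Klf9 (18.3) and Nr3c1 (15.3). Fkbp5 (6.05), Zbtb16 (4.76) and Hsd11b1 (3.01) were lowest. The order of the group means differed between groups: Klf9 was below Sgk1 in the IL-6 KO-labelled libraries (9.60 against 20.9 RPKM) and above it in BALB/c (21.9 against 19.2) and C57BL/6 (20.2 against 19.5). Klf9 was also below Nr3c1 (10.1) in the IL-6 KO-labelled libraries, where Zbtb16 was below Hsd11b1 (3.73), and Zbtb16 was above Fkbp5 in BALB/c (4.91 against 4.48). Mt1 (at least 55.7 RPKM in any library) did not overlap with Tsc22d3 (at most 43.8), and every other pair of neighbours overlapped across the 9 libraries. Within each group, the lowest library of Mt2 lay above the highest of Mt1: 300.6 against 162.2 RPKM in the IL-6 KO-labelled libraries, 114.5 against 86.5 in BALB/c and 89.2 against 73.8 in C57BL/6.

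Other genes known to be induced by glucocorticoids went both ways, with more lower than higher. Of 37 tested, 6 were higher and 12 lower in the IL-6 KO-labelled libraries than in C57BL/6 (median -0.31, 48.6% called). Against BALB/c 5 were higher and 14 lower (median -0.58, 51.4% called). Of all genes, 19.2% were higher and 16% lower against C57BL/6, and 19.9% were higher and 17.4% lower against BALB/c. Klf15, a factor that acts with the receptor on amino acid and lipid metabolism, stood at 9.23 ± 0.62 CPM in the IL-6 KO-labelled libraries, 27.3 ± 7.71 in BALB/c and 29.3 ± 3.80 in C57BL/6 (SD, n = 3 each). It fell by 1.57 against BALB/c (adjusted p = 0.00109) and by 1.67 against C57BL/6 (0.000908, edgeR). Lpin1, a phosphatidate phosphatase of fat metabolism, stood at 35.7 ± 13.0 CPM in the IL-6 KO-labelled libraries, 119 ± 26.1 in BALB/c and 111 ± 25.5 in C57BL/6. Cdkn1c, the cell cycle inhibitor p57, fell to 14.3 ± 0.66 CPM in the IL-6 KO-labelled libraries, against 46.4 ± 10.4 in C57BL/6 (-1.70 ± 0.19, adjusted p = 0.000513).

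In the same list Map3k6, a stress kinase gene, rose to 105 ± 39.8 CPM in the IL-6 KO-labelled libraries, against 27.3 ± 1.56 in BALB/c and 29.8 ± 5.18 in C57BL/6. Cdkn1a, the inhibitor p21, rose to 299 ± 42.8 CPM in the IL-6 KO-labelled libraries, against 122 ± 19.1 in BALB/c (1.30 ± 0.19, adjusted p = 0.00123, edgeR). Trim63 and Fbxo32, ubiquitin ligases known from muscle wasting, are also on the list and are given here after their values were seen. Trim63 was at 21.4 ± 5.87 CPM in the IL-6 KO-labelled libraries, 126 ± 52.9 in BALB/c and 82.0 ± 38.3 in C57BL/6 (adjusted p = 0.00182 against BALB/c and 0.00637 against C57BL/6, edgeR), and Fbxo32 was at 77.7 ± 11.02 CPM in the IL-6 KO-labelled libraries, 242 ± 85.4 in BALB/c and 142 ± 29.4 in C57BL/6 (0.00220 and 0.0335). The share of muscle transcripts, given below, was lower in those libraries too, and its part was not tested. Between the strains 3 genes of this list were lower in BALB/c and 0 higher (8.11% called, where 3.41% of all genes were). They were Mertk, a receptor for clearing dead cells (-1.19 ± 0.18, adjusted p = 0.00810, edgeR), Fam107a (-1.88 ± 0.32, 0.0149) and Cdkn1c (-0.94 ± 0.18, 0.0258). Fam107a was read little, at 1.30 ± 0.43 CPM in BALB/c and 4.83 ± 0.63 in C57BL/6.

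The receptor's chaperones and coregulators showed no shared direction. Of 19 genes, 3 were higher and 3 lower in the IL-6 KO-labelled libraries than in C57BL/6, while against BALB/c 4 were higher and 2 lower. That is 31.6% called in either comparison, below the 35.2% of all genes called against C57BL/6 and the 37.3% against BALB/c. Nr3c2, the mineralocorticoid receptor that also binds glucocorticoid, fell to 3.09 ± 1.04 CPM in the IL-6 KO-labelled libraries, against 13.5 ± 1.77 in BALB/c (-2.10 ± 0.26, adjusted p = 0.000593) and 12.0 ± 1.27 in C57BL/6 (-1.95 ± 0.26, 0.000865, edgeR). The chaperone Hsp90aa1, which holds the receptor ready for hormone, rose to 245 ± 51.4 CPM, against 123 ± 15.1 in BALB/c and 116 ± 23.2 in C57BL/6. Hspa8, a constitutive chaperone of the same cycle, was at 1276 ± 106 CPM in the IL-6 KO-labelled libraries, 524 ± 28.1 in BALB/c and 1110 ± 64.0 in C57BL/6. It was the only gene of this list called between the strains (-1.08 ± 0.16, adjusted p = 0.00684).

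Steroid synthesis genes were mostly read little. Of 21 listed, 11 could be tested. Against C57BL/6 1 was called, which is 9.09% where 35.2% of all genes were. It was Star, which carries cholesterol into mitochondria for the first step of steroid synthesis. It stood at 9.99 ± 2.51 CPM in the IL-6 KO-labelled libraries, 5.09 ± 0.48 in BALB/c and 5.22 ± 1.60 in C57BL/6 (0.96 ± 0.29, adjusted p = 0.0268, against BALB/c, and 0.92 ± 0.29, 0.0327, against C57BL/6, edgeR). Against BALB/c 3 were higher and 2 lower, which is 45.5% called where 37.3% of all genes were. Hsd3b6, a steroid dehydrogenase gene, was lower at 2.77 ± 1.71 CPM in the IL-6 KO-labelled libraries, against 7.32 ± 1.62 in BALB/c.

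Many genes of zinc handling, but not all, rose with Mt1 and Mt2. Of 14 tested, 9 were higher and 1 lower in the IL-6 KO-labelled libraries than in C57BL/6 (median 1.36, 71.4% called, where 35.2% of all genes were). Against BALB/c 8 were higher and 1 lower (median 1.45, 64.3% called, where 37.3% of all genes were). Slc39a8, a zinc importer, rose to 146 ± 66.8 CPM in the IL-6 KO-labelled libraries, against 22.0 ± 2.16 in BALB/c and 16.2 ± 4.02 in C57BL/6. The importer gene Slc39a10 rose to 228 ± 119 CPM, against 25.7 ± 2.21 in BALB/c (3.14 ± 0.41, adjusted p = 0.000708, edgeR). Mt4, a metallothionein of stratified epithelium, rose to 211 ± 77.2 CPM, against 40.8 ± 8.30 in C57BL/6 (2.37 ± 0.29, adjusted p = 0.000637). Slc30a2 and Mtf1 are given here after their values were seen. Slc30a2 fell to 1.22 ± 0.69 CPM in the IL-6 KO-labelled libraries, against 6.87 ± 3.33 in BALB/c and 4.35 ± 0.11 in C57BL/6. Mtf1, the gene of MTF1, was not called (adjusted p = 0.0708 against BALB/c and 0.691 against C57BL/6, edgeR). None of this list was called between the strains in edgeR.

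Among inflammatory genes that the receptor is known to repress, 4 of 15 tested were higher and 1 lower in the IL-6 KO-labelled libraries than in C57BL/6, while against BALB/c 2 were higher and 0 lower. That is 33.3% called where 35.2% of all genes were, and 13.3% called where 37.3% were. Il1b, which encodes interleukin-1 beta, was at 15.2 ± 15.6 CPM in the IL-6 KO-labelled libraries and 0.35 ± 0.37 in C57BL/6 (5.29 ± 1.17, adjusted p = 0.00755, edgeR), a spread as large as its mean. Nos2, the inducible nitric oxide synthase, fell to 0.67 ± 0.35 CPM, against 3.81 ± 1.69 in C57BL/6. Mmp13, a collagenase gene, was at 15.3 ± 15.1 CPM in the IL-6 KO-labelled libraries, 1.75 ± 1.43 in BALB/c and 0.95 ± 1.06 in C57BL/6.

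**Figure D4:**
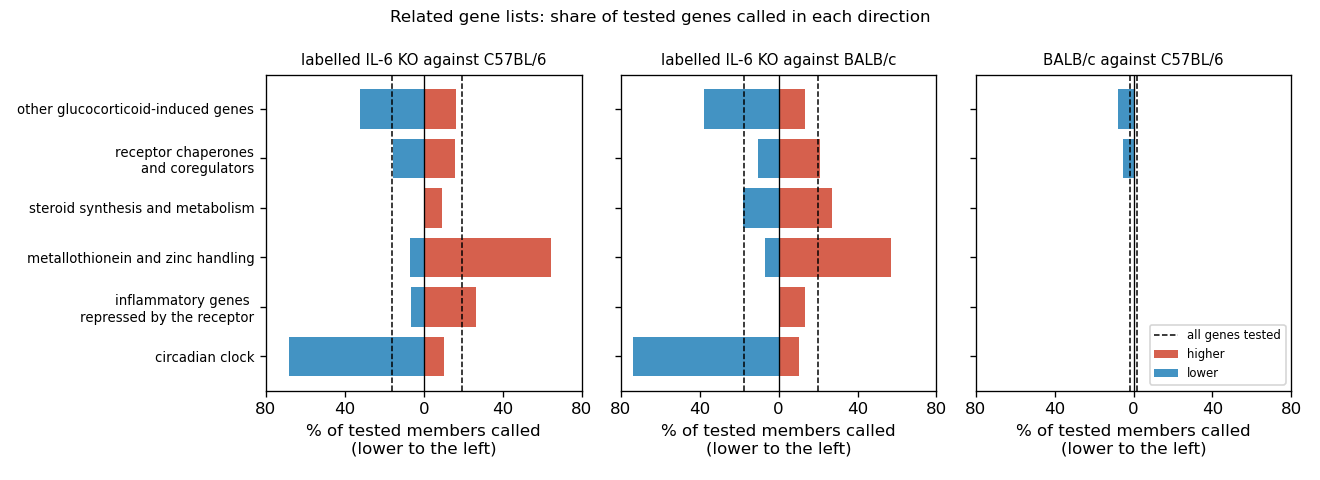
For each list of related genes, the percentage of tested genes called higher (right of 0) or lower (left of 0) in the 3 comparisons; dashed lines mark the percentages over all 14415 genes tested. Zinc handling genes are called higher more often than all genes in both comparisons of the IL-6 KO-labelled libraries (9 of 14 and 8 of 14), and clock genes are called lower more often (13 of 19 and 14 of 19).

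Several other transcript groups moved with these comparisons. Circadian clock genes had 2 higher and 13 lower of 19 in the IL-6 KO-labelled libraries against C57BL/6, and 2 higher and 14 lower against BALB/c. Dbp, a clock output factor, stood at 39.5 ± 7.09 CPM in the IL-6 KO-labelled libraries, 213 ± 13.5 in BALB/c and 212 ± 46.5 in C57BL/6. Per1, which is both a clock gene and a direct target of the receptor, and counted in both lists, stood at 62.1 ± 16.2 CPM in the IL-6 KO-labelled libraries, 95.1 ± 3.72 in BALB/c and 107 ± 14.5 in C57BL/6. Per2 and Nr1d1 stood at 10.76 ± 2.103 and 64.25 ± 31.46 CPM in the IL-6 KO-labelled libraries. They were at 28.27 ± 0.902 and 187.3 ± 11.45 in BALB/c, and at 35.45 ± 14.25 and 207 ± 61.05 in C57BL/6. Arntl, of the opposite phase, was at 21.4 ± 5.36 CPM in the IL-6 KO-labelled libraries, 10.9 ± 0.83 in BALB/c and 13.2 ± 3.69 in C57BL/6. Its libraries overlapped with those of C57BL/6, with an adjusted p at the threshold (0.0496, edgeR), and lay above those of BALB/c (0.0134). The clock genes took 0.0649 to 0.102% of exon reads in the IL-6 KO-labelled libraries, 0.183 to 0.194% in BALB/c and 0.164 to 0.184% in C57BL/6. Their part in the members' differences was not tested.

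The make-up of the skin samples also differed. Skeletal muscle genes took 1.46 to 1.71% of exon reads in the IL-6 KO-labelled libraries, 3.78 to 7.75% in BALB/c and 7.68 to 11.8% in C57BL/6, with 18 and 19 of 20 markers lower in the IL-6 KO-labelled libraries than in BALB/c and in C57BL/6. Hair matrix and shaft genes took 7.52, 2.03 and 5.74% in the IL-6 KO-labelled libraries, 0.00193 to 0.00429% in BALB/c, where Krt33b and Krt81 had 0 reads, and 0.00248 to 0.0725% in C57BL/6. All 20 were higher in the IL-6 KO-labelled libraries in both comparisons. Proliferation genes were higher in 12 of 12 against C57BL/6 and 11 of 12 against BALB/c (0.0322 to 0.0776% of reads, against 0.0121 to 0.0147% in BALB/c and 0.00684 to 0.0105% in C57BL/6). Endothelial genes were lower in 11 and 4 of 12 (0.0215 to 0.0310%, against 0.0232 to 0.0473% in BALB/c and 0.0492 to 0.0643% in C57BL/6). Melanocyte genes were higher in 6 of 6 tested in both comparisons (0.0113 to 0.0985%, against 0.00301 to 0.00394% in BALB/c and 0.00324 to 0.00485% in C57BL/6). IL-6 KO replicate 2, the nearest of its group to the strains for Nr3c1, Tsc22d3, Zbtb16, Klf9, Mt1 and Mt2, was also the nearest in its share of hair (2.03%), clock (0.102%), muscle (1.71%), proliferation (0.0322%) and melanocyte (0.0113%) transcripts. It was not near the strains throughout. Its shares of epidermal (3.46%), myeloid (0.213%), mast cell (0.0229%) and T cell (0.0198%) transcripts were above those of every other library. Adipocyte genes were lower in 7 of 14 tested against BALB/c and 0 against C57BL/6 (0.163 to 0.458%, against 0.407 to 1.49% in BALB/c and 0.397 to 0.537% in C57BL/6). The part of these groups in the members' differences was not tested. With muscle and hair genes left out of the library sizes the same numbers of members, 7, 5 and 0, were called.

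The genes with the most similar profile were found by the root mean square difference of centred log2(CPM + 1) over the 9 libraries, as a description with no test. For Nr3c1 they were Cyp2j9 and Mad2l2 (0.09 each, against a median of 0.55 over all genes compared). For Tsc22d3 they were Ppfia4 (0.09) and Dpysl2 (0.10), for Klf9 Fut8 (0.15) and Tnfaip8l3 (0.17), and for Fkbp5 Adcy2 (0.39) and Tmem177 (0.41). Zbtb16 was nearest to Il22ra2 (0.25) and to Krt15, a keratin of basal and follicle stem cells (0.26), which averaged 493 CPM in the IL-6 KO-labelled libraries, 1290 in BALB/c and 2470 in C57BL/6. Mt2 was nearest to Gclc, an enzyme of glutathione synthesis (0.11), and Spint1 (0.14), and Mt1 to Mthfd1l and Cdc45 (0.11 each). Sgk1 was nearest to Erp44 (0.07) and Brk1 (0.08), and Hsd11b1 to Slc27a3 (0.19) and Ralgapa2 (0.22). The median over all genes compared differed by member. It was 0.55 for Nr3c1 and Hsd11b1, 0.605 for Tsc22d3, 0.77 for Klf9, 0.89 for Fkbp5 and 1.11 for Zbtb16. For Mt2 it was 0.87, for Mt1 0.52 and for Sgk1 0.355. No member was among the 2 nearest genes of another.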

How the data were processed

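GRCm38 is the genome build named in the submitters' processing notes. For the aligner and for strand use in counting, nothing is given in the sources used here. Raw read counts per gene for exons and introns, and RPKM values, are as deposited by the authors, per the file headers. The file of C57BL/6 replicate 1 holds 3 tables, and only its first was read, since the later 2 repeat those of replicates 2 and 3. Total exon reads of the 9 libraries were fitted in 1 model (edgeR 4.0.16, R 4.3.3) with 1 mean per group, which leaves 6 residual degrees of freedom. The filter was filterByExpr at a count of 10 and a total of 15, which kept 14415 genes, and the scaling was TMM (common dispersion 0.0524). Quasi-likelihood F tests were adjusted by Benjamini-Hochberg over all genes, with a threshold of 0.05. The fit was run on simulated counts for 1 comparison only (IL-6 KO-labelled libraries against C57BL/6). SE is the log2 fold change divided by the square root of F. Named genes are the 9 members, up to 4 genes by p-value per list and comparison among called genes without overlap, 5 clock genes (Per1, Per2, Arntl, Nr1d1 and Dbp), and the 2 nearest profiles per member among genes of at least 5 CPM. The members and lists were chosen with earlier results of these data known. Promoters are from RefSeq, overlapping genes from GENCODE vM21. Alternatives were RLE scaling, library size alone, muscle and hair genes left out of library sizes, no filter, a robust fit, a replicate block, only the groups compared, DESeq2 1.42.0, unique exon reads, and leaving out each library. Hsd11b1 had 28 to 110 exon reads a library. The SE was largest for Zbtb16 among the members in each comparison.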

Additional observations from a re-analysis of the deposited data

How the results depend on the processing

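Of 486 recomputed member differences, 442 kept their direction and side of the threshold, 15 lost and 5 gained a call in the same direction, and 24 changed sign, each of these for a difference not called to begin with. The Tsc22d3, Zbtb16, Klf9, Mt1 and Mt2 calls against C57BL/6 held in each alternative. The cause of the changes below was not tested. Members called in BALB/c against C57BL/6 numbered 1 (Fkbp5), in place of 0, with no filter, with the replicate block and in DESeq2. The same held without IL-6 KO replicate 2 (adjusted p = 0.0454, edgeR), a library outside that comparison. Genes called there numbered 255 with the replicate block and 1023 in DESeq2, against 491. The replicate numbers pair no animals per the labels, and same-numbered libraries correlated between -0.212 and 0.0617 in their deviations; the block changed no other call of a member. Leaving out 1 library gave 3238 to 6806 genes called for the IL-6 KO-labelled libraries against C57BL/6, 3310 to 7044 against BALB/c, 167 to 977 between the strains and 3582 to 7724 in the joint test, with 5 to 7, 3 to 6 and 0 to 1 members called.

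With library size alone the median of all genes shifted by 0.14 (labelled IL-6 KO against C57BL/6), and the share of called genes that were higher was 67.8% in place of 54.6%; between BALB/c and C57BL/6 it was 58.8% in place of 47.9%. Signs changed with library size alone for Hsd11b1 (0.073) and Sgk1 (0.093) in the IL-6 KO-labelled libraries against C57BL/6 and for Sgk1 between the strains (0.0074). For Sgk1 against BALB/c they changed with RLE (-0.0016), without muscle and hair genes (-0.011), with no filter (-0.031) and with unique reads (-0.023). Leaving out 1 library gave ranges across 0 for Hsd11b1 (-0.57 to 0.19 against C57BL/6, -0.68 to 0.23 against BALB/c, -0.33 to 0.31 between the strains), Sgk1 (-0.20 to 0.047 and -0.13 to 0.11), Fkbp5 against BALB/c (-0.21 to 0.34), and Tsc22d3 (-0.21 to 0.029) and Klf9 (-0.0061 to 0.24) between the strains.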
